A study of Mus musculus with 14 samples.

Results

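The 2000 most accessible autosomal peaks of mouse long-term hematopoietic stem cells (LT-HSCs) were taken from an ATAC-seq table, in which a transposase inserts sequencing adapters into open DNA and the reads counted in a region measure how open it is. Each peak was ranked by its counts divided by the library total, averaged over all 14 libraries, and the first 2000 were kept out of 56007 autosomal peaks (57289 with the X and Y chromosomes). Since the peaks were chosen by their own level, levels and ranks are given as a description, with no test. No difference between groups was computed for the choice, but the levels of every group enter the mean, and 10 of the 14 libraries are from aged animals. Peaks high in aged or aged Ri cells were therefore favoured, and calls of higher peaks in those groups are not independent of the choice.

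The cells came from bone marrow of C57BL/6 mice and were sorted as negative for lineage markers, CD34 and Flt3 and positive for Sca1 and cKit. Young cells (10 to 16 weeks, 4 libraries), aged cells (over 80 weeks, 5 libraries) and aged cells given the RhoA inhibitor Rhosin at 100 µM (aged Ri, 5 libraries) were all kept for 16 h in culture before the assay, so no group shows cells straight from the animal. The libraries were sequenced in 3 batches, each with all 3 groups. Batch 3 held 1 library of each group (young 4, aged 5 and aged Ri 5), and batch 1 held 1 young library (young 1), so within-batch differences there have no replicate on at least 1 side. The series describes 4 to 5 biological replicates a group, but the number of animals behind a library is not stated, and p-values measure the spread between these libraries.

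Promoters of widely expressed genes usually lie in CpG islands and stay open in most cell types, where factors such as Sp1 (on GC boxes) and NF-Y (on CCAAT boxes) bind. Enhancers lie within or between genes and are more often open in particular cell types. In blood stem cells, distal elements near genes such as Kit and Runx1 are known for such cell-type use, while RhoA is a small GTPase that controls actin and contractility.

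Most of the 2000 peaks lay at gene starts. In all, 1414 (70.7%) were within 1000 bp of the start of a protein-coding gene, against 20.1% of all autosomal peaks, and 12.6% of the peaks at such starts were among the 2000. Another 198 lay at a start or end of a gene whose strand was not given, 44 at the start of a long non-coding RNA and 10 at a 3′ end. The remaining 334 lay away from gene starts and ends: 148 within genes (7.4%, against 37.0% of all autosomal peaks), 127 between genes within 50 kb of one (6.35%, against 22.8%) and 59 farther away (2.95%, against 10.8%). Peaks holding starts on both strands, where neighbouring genes run in opposite directions, made up 278 of the start peaks (19.7%, against 9.04% of all start peaks). Altogether 1909 genes were named, of which 1839 had 1 peak, 60 had 2 and 10 had 3 or more. By chromosome, the share of peaks among the 2000 ran from 2.64% on chromosome 14 (61 of 2310) to 5.23% on chromosome 7 (185 of 3536).

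The letters of the promoters differed from those of less open ones. RefSeq (GRCm38.p6) gave 1625 promoters of 300 bases, 250 before to 50 after the start, in 1478 genes of these peaks. They held a median of 63.3% G and C and a CpG content of 0.836 of that predicted by base composition, against 61.7% and 0.77 in 8745 promoters at other peaks and 50% and 0.253 in 9715 promoters with no peak. In ranks 2001 to 4000 alone these medians were 63.33% and 0.8444, and in ranks 1 to 100 they were 59.17% and 0.7965. Base composition thus did not set the 2000 apart from the ranks just below them. The letters CCAAT, searched on both strands as were all motifs, were in 60.6% of these promoters, 34.9% of those at other peaks and 38.1% of all 20085 promoters. The GC box GGGCGG was in 78.8%, 65.9% and 47.0%, and the ETS-type letters CCGGAAG in 22.1%, 19.5% and 11.9%. TATAAA was in 5.23% of the promoters of these peaks against 12.7% of all. Across ranks, the share with CCAAT was 69.9% in ranks 1 to 500, 58.1% in ranks 501 to 1000, 57.2% in ranks 1001 to 2000, 48.5% in ranks 2001 to 4000 and 29.5% past rank 10000. The GC box showed less of a slope, at 78.9%, 80.5%, 77.8%, 75.3% and 59.5% in the same bands. The ETS-type letters did not rise toward the top ranks, at 17.2%, 23.2%, 24.0%, 24.6% and 14.4%, with 24.2% in ranks 4001 to 10000. A match of letters is a description and not a bound site.

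The stretches of 150 bases upstream of 9 starts below show these letters, from RefSeq with the GRCm38.p6 build. They were chosen after their values were seen, and capitals mark CCAAT boxes (CCAAT or ATTGG) and GC boxes (GGGCGG or CCGCCC). The first 5 belong to peaks of high rank that hold at least 2 CCAAT boxes, at genes for a sterol-binding protein (Osbp), a mitochondrial dehydrogenase (Aldh6a1), a zinc finger protein (Zbtb5), a chaperone partner (Stip1) and a histone (H2ac6).
Osbp, chr19:11965694-11965843, plus strand, rank 25: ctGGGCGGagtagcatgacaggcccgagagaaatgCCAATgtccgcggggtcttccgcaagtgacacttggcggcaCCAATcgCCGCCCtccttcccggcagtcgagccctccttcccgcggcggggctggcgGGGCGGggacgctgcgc
Aldh6a1, chr12:84451025-84451174, minus strand, rank 35: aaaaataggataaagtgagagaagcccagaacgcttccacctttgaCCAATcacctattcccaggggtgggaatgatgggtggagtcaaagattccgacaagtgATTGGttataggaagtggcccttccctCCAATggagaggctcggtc
Zbtb5, chr4:45012413-45012562, minus strand, rank 45: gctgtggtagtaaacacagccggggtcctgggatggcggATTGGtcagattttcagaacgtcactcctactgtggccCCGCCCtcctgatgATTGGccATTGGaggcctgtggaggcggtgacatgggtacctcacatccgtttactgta
Stip1, chr19:7040027-7040176, minus strand, rank 50: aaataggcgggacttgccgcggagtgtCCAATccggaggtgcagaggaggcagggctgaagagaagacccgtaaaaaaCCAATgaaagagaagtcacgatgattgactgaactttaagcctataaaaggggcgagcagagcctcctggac
H2ac6, chr13:23683960-23684109, minus strand, rank 164: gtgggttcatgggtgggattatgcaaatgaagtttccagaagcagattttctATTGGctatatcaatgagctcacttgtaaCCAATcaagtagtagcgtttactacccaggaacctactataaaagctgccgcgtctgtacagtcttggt
The next 4 belong to start peaks that were lower in a comparison with young cells, and hold 2 GC boxes and 0 CCAAT boxes each. Eloa, Spsb1 and Spryd7 fell between young and aged cells, and Bcl7c between young and aged Ri cells, where 5 of the 13 promoters at such peaks do hold CCAAT. Eloa encodes an elongation factor subunit, Spsb1 a substrate adaptor of a ubiquitin ligase, and Bcl7c a subunit of a chromatin remodelling complex.
Eloa, chr4:136021650-136021799, minus strand, rank 1450: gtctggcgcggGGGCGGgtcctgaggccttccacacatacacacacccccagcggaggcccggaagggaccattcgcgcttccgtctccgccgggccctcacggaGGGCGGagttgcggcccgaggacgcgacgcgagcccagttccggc
Spsb1, chr4:149955007-149955156, minus strand, rank 1180: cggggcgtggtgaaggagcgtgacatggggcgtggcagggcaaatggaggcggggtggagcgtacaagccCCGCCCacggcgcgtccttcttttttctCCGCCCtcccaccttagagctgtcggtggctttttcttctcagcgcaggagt
Spryd7, chr14:61556887-61557036, minus strand, rank 1301: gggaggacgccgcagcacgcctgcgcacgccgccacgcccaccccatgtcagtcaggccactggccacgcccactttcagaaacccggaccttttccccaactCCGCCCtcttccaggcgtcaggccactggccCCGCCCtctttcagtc
Bcl7c, chr7:127708767-127708916, minus strand, rank 1694: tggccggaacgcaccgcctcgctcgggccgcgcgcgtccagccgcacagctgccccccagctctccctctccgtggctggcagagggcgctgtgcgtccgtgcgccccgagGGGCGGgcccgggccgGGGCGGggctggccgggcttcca
The GC boxes of the first group range from 0 (Aldh6a1, Stip1 and H2ac6) to 3 (Osbp). The Bcl7c and Marf1 peaks cover the microRNAs Mir762 and Mir484, whose mature sequences follow with the seed (bases 2 to 8) in capitals. The seeds differ.
mmu-miR-762, chr7:127708534-127708555, plus strand: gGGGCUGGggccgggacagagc
mmu-miR-484, chr16:14159630-14159651, plus strand: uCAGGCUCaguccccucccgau

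A few peaks stood far above the rest. The mean level over 14 libraries, in raw CPM (counts scaled to a common library total), was 4025 at rank 1, 177.3 at rank 100, 113.4 at rank 500, 89.35 at rank 1000 and 67.75 at rank 2000. Rank 1 (chr12:97061261-97061960) lay 1140327 bp from the nearest gene, Galc. Its levels, in CPM with TMM library scaling as in all values that follow, were 2087, 4164, 6768 and 3479 in young libraries 1 to 4, 4735, 3992, 3697, 4904 and 3034 in aged libraries 1 to 5, and 4016, 5392, 3659, 3180 and 3520 in aged Ri libraries 1 to 5. The young libraries held both its lowest and its highest value, so the groups overlapped fully (log2 difference aged against young −0.01, edgeR adjusted p = 0.986). Ranks 2 and 3 lay within Myo3a, and the top 3 peaks together held 0.506% (young 1) to 1.66% (young 3) of a library's counts. How reads that match several places were counted is not given, and whether the highest levels measure open DNA alone was not tested. At the lower edge, the last 3 peaks inside (Ptma, Lmbrd2 and Ciao1) had raw CPM of 67.78, 67.77 and 67.75, and the first 3 outside (Trp53bp2, Smarca2 and Ywhah) began at 67.75. Membership was therefore sensitive to the libraries used: 852 of the 2000 (42.6%) were in the top 2000 of every library, while ranking by the young libraries alone shared 1767.

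**Figure D1:**
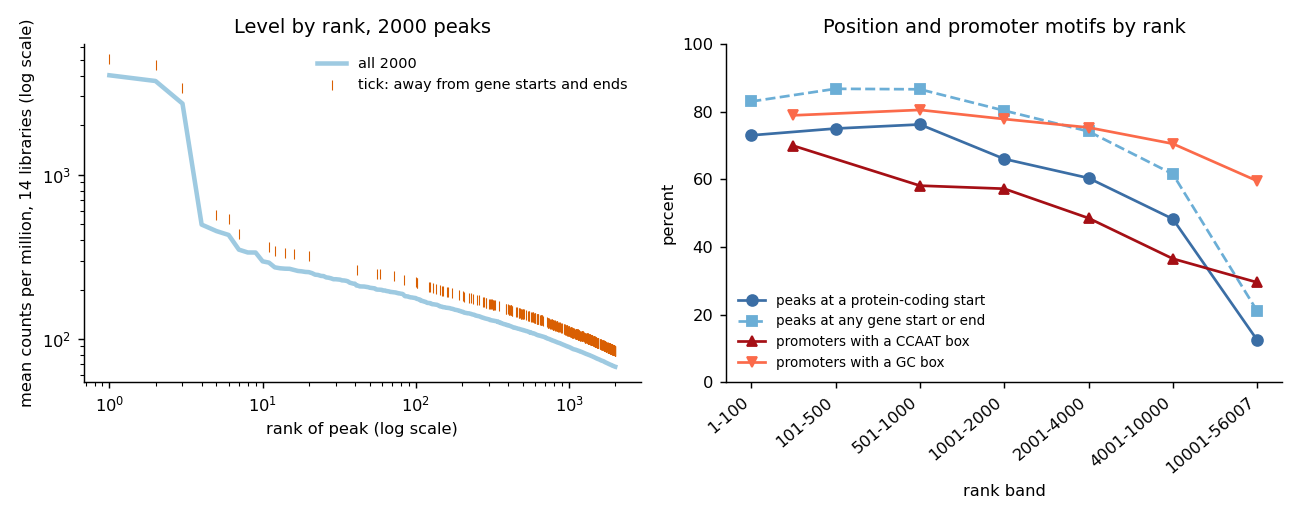
Left, mean level in raw CPM (log axis) against rank for the 2000 peaks, with orange ticks, drawn just above the line, at peaks away from gene starts and ends. Right, by band of rank, the percent of peaks at the start of a protein-coding gene (73.0% in ranks 1 to 100, 66.0% in ranks 1001 to 2000 and 12.46% past rank 10000), at any gene start or end, and of promoters with a CCAAT or a GC box.

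Among the next ranks, the 3′ end of Lars2 (a mitochondrial leucyl-tRNA synthetase; rank 4) had 651, 508, 775 and 578 CPM in young, 380, 502, 232, 424 and 681 in aged and 363, 963, 196, 384 and 414 in aged Ri libraries. Aged 5 lay within the young values and aged Ri 2 was above them, and the difference aged against young was not called (log2 −0.62, edgeR adjusted p = 0.26). Ranks 5 and 6 lay between genes, at chr6:9889702-9890401 640083 bp from Nxph1 and at chr5:60042590-60043289, and rank 7 lay within Peak1. Ranks 8 to 10 lay at genes: Khsrp (an RNA-binding protein that promotes mRNA decay), Sp1 (the GC-box factor itself) and Cic (a transcriptional repressor), although the starts of Khsrp and Sp1 in the RefSeq table lie just outside their peaks. The Khsrp peak (chr17:57031540-57032239) had 276, 335, 507 and 281 CPM in young, 281, 266, 391, 450 and 350 in aged and 235, 410, 386, 334 and 266 in aged Ri libraries, with all 3 groups overlapping. Ranks 11 and 12 lay within Gphn and Jarid2.

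Small RNA genes were also present. Of the 2000 peaks, 10 lay over transfer RNA genes (6.37% of the 157 peaks over such genes), 4 over small nuclear RNAs (7.55% of 53), 3 over small nucleolar RNAs (11.1% of 27) and 11 over microRNAs (12.9% of 85). All 11 microRNA peaks had a log2 difference below 0 between aged and young cells, from −0.68 to −0.02, as did 1450 of the 1666 peaks at gene starts or ends. The lowest was called, at the start of Marf1 with Mir484.

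Depth and background were as follows. Library totals ran from 765533 counts (young 3) to 3176246 (aged Ri 3), which left a median of 83 to 290 counts at one of the 2000 peaks and 7 to 30 at any peak. The standard error of a log2 difference had a median of 0.216 at the 2000 peaks against 0.331 at all peaks. The share of all counts that lay at gene starts or ends moved with age, at 54.0% to 58.1% in young, 45.4% to 56.9% in aged (aged 5 highest) and 42.3% to 53.9% in aged Ri libraries. Of the marker sets for HSC, B, T and NK, myeloid, erythroid, megakaryocyte, endothelial and stromal, and non-hematopoietic cells, 0 markers were among the 2000 peaks. For HSC markers 9 of 10 had a peak (Slamf1 had none), with summed CPM of 166 to 307 in young, 169 to 245 in aged and 137 to 227 in aged Ri libraries. For megakaryocyte markers 5 of 6 had a peak (Ppbp had none), with summed CPM of 79.1 to 172 in young, 173 to 256 in aged and 121 to 202 in aged Ri libraries, and 3 of 6 B cell markers had a peak, at 20.3 to 103, 18 to 39 and 29.8 to 39.7. The part of either marker set in the results below was not tested. In a bulk sample, fewer cells of a type and less signal per cell cannot be told apart.

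The 2000 peaks held 16.48% to 25.99% of a library's counts. Their share of counts was 19.99%, 23.02%, 25.99% and 22.72% in young libraries (22.9% ± 2.45, SD, n = 4), 18.37%, 18.55%, 20.8%, 22.36% and 23.65% in aged (20.8% ± 2.32, SD, n = 5) and 16.48%, 23.9%, 20.37%, 22.7% and 19.45% in aged Ri (20.6% ± 2.90, SD, n = 5). The groups overlapped. The part at gene starts and ends was 18.75% ± 1.56 in young, 16.38% ± 2.27 in aged and 16.23% ± 2.54 in aged Ri libraries, and the part elsewhere was 4.18% ± 0.906, 4.37% ± 0.203 and 4.34% ± 0.569. Within batches 1, 2 and 3, the aged minus young difference in the share of the 2000 was −1.53, −2.92 and 0.929 percentage points, and the aged Ri minus aged difference was 1.73, −0.0504 and −4.20, so neither kept 1 sign.

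**Figure D2:**
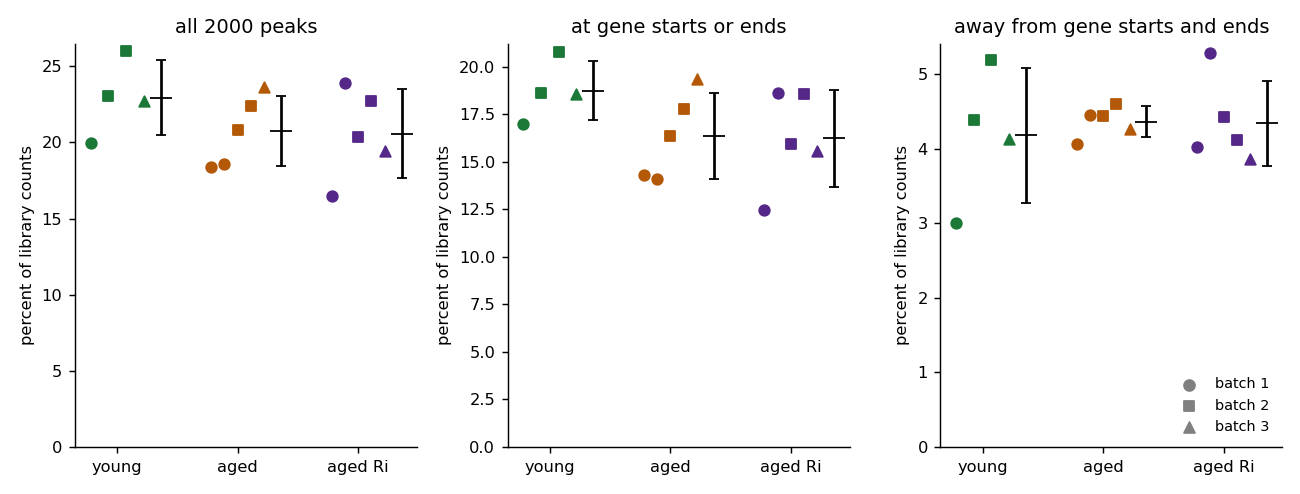
Percent of each library's counts in the 2000 peaks, in those at gene starts or ends and in those elsewhere, by group, with marker shape for the sequencing batch and bars for mean ± SD. The groups overlap in every panel.

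Between aged and young cells, few of the 2000 peaks were called, and 21 of the 30 that were lay away from gene starts and ends. edgeR called 30 (22 higher, 8 lower in aged cells) at an adjusted p under 0.05, or 1.5% of them, against 5.72% of all 56235 peaks tested (4.45% higher and 1.26% lower). The split depended on the ranking, since peaks high in aged libraries enter a mean in which those libraries are 10 of 14. The 2000 peaks ranked highest in the young libraries alone had 18 called, 1 higher and 17 lower, but that ranking favours peaks high in young cells. Ranking by the mean of the 3 group means gave 18 higher and 8 lower, and by the median over 14 libraries 30 higher and 6 lower. At an unadjusted p under 0.05 the count was 368. The median log2 difference over the 2000 peaks was −0.22, against −0.01 over all peaks tested, and 1613 were below 0. Start peaks of protein-coding genes had a median of −0.24 and 7 calls of 1414 (0.495%; 1 higher, 6 lower), and all 11602 such start peaks tested had −0.23 and 295 calls (2.54%; 105 higher, 190 lower). Of the 334 peaks away from starts and ends, 21 were called (6.29%; 19 higher, 2 lower), against 6.84% of all such peaks, with a median of 0.01 against 0.10. Within batches, the median difference of the 2000 was −0.363, −0.254 and 0.0622 in batches 1 to 3 on the log2(CPM + 1) scale, so batch 3 had the opposite sign. Of the called peaks, all 8 lower ones were below 0 in every batch and 18 of the 22 higher ones were above 0 in batch 3. With TMM scaling computed over the 2000 peaks alone, the median over all peaks goes from −0.01 to 0.20 and that of the 2000 is −0.01, with 137 called (93 higher, 44 lower). That is 6.85% of the 2000, against 5.955% of all peaks tested. Whether the 2000 were called less often than all peaks therefore depended on the scaling.

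Single libraries decided this count: 2 of the 22 higher peaks (Chrm3 and Gm51582) and 0 of the 8 lower ones stayed called whichever library was left out. The count was 2 without young 1, 10 without young 3 or aged 3, 13 without aged 1 and 18 without aged 2, and it was 84 without young 4 (53 higher, 31 lower). Calls lower with age outnumbered higher ones without aged Ri 1 (23 higher, 24 lower; 47 in all), aged Ri 2 (47 and 50; 97 in all), aged Ri 5 (28 and 36; 64 in all) and aged 5 (28 and 105; 133 in all), and with the aged and young libraries fitted alone (53 and 95; 148 in all). Leaving out aged Ri 4 gave 45 (24 higher, 21 lower). With the share of counts at gene starts or ends as a covariate, 2 were called and the median was 0.18, and over all peaks tested 143 were called. That share includes the counts of the 1666 peaks at gene starts or ends, so the covariate takes up part of their own difference.

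Of the 22 peaks that rose with age, the one with the largest difference lay within Chrm3, the gene for a muscarinic acetylcholine receptor. The peak (chr13:10220209-10220908) had 14.2, 42.6, 29.8 and 26.6 CPM in young libraries, 75.4, 72.1, 125, 99.9 and 42.3 in aged libraries and 73.4, 83.4, 134, 83.1 and 63.1 in aged Ri libraries. Young 2 (42.6) overlapped with aged 5 (42.3) alone. The difference aged against young was 1.57 ± 0.25 (SE) on the log2 scale, or 2.97-fold (edgeR adjusted p = 0.000145), and it stayed called under every alternative and whichever library was left out. The difference aged Ri against aged was 0.11 (edgeR adjusted p = 0.942). A peak on chromosome 8, 47.1 kb from the predicted gene Gm51582, had 20.4, 52.9, 28.4 and 29.5 CPM in young and 83.4, 75, 125, 93.8 and 41.4 in aged libraries, again with aged 5 inside the young range, and rose by 1.28 ± 0.25 (edgeR adjusted p = 0.00142).

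A peak 1722 bp from Dyrk3, which encodes a kinase that acts on stress granules, had 41.8, 104, 52.5 and 67.7 CPM in young, 123, 128, 219, 157 and 97.5 in aged and 127, 152, 207, 140 and 99 in aged Ri libraries, and rose 2.18-fold (log2 1.13 ± 0.24, edgeR adjusted p = 0.00302; 0.0543 without young 1). The start of Vamp8, a vesicle fusion protein used in platelet secretion, had 29.3, 70.1, 31.2 and 58 CPM in young, 77, 88.5, 126, 125 and 59.2 in aged and 51.5, 88.5, 83.3, 74.8 and 73.2 in aged Ri libraries. It rose 2.02-fold (edgeR adjusted p = 0.0117), a call lost without young 1 or young 3 (edgeR adjusted p up to 0.117), and was the only called higher peak at a protein-coding start. A peak within Runx1, a transcription factor of blood formation, rose by 0.99 on the log2 scale, and 1 near Bcl11a, a transcription factor of lymphoid and globin control (53091 bp away), rose by 1.18 (edgeR adjusted p 0.0337 and 0.0278). Peaks 1213 bp from Btg2, an antiproliferative gene, and within Alk, a receptor tyrosine kinase gene, rose by 0.99 and 1.06 (edgeR adjusted p 0.0248 and 0.00642). A peak within Ahi1 rose by 1.02, 1 lying 111629 bp from Cand1 by 1.01 and 1 within the predicted gene Gm52806 by 1.36 (edgeR adjusted p 0.0129, 0.0083 and 0.00804). In batch 3 alone the Runx1, Bcl11a and Btg2 differences were below 0 (−0.07, −0.33 and −0.09), and those of Alk, Ahi1, Cand1 and Gm52806 were 0.15 to 0.40.

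The peak nearest Kit, which encodes the stem cell factor receptor, lay 73872 bp away (chr5:75730594-75731293). It had 32, 107, 69.6 and 80.3 CPM in young, 87.4, 85.5, 153, 138 and 92.6 in aged and 43.2, 57.9, 91.3, 79.8 and 65.5 in aged Ri libraries. All 3 groups overlapped. It rose by 0.76 ± 0.22 between young and aged cells (edgeR adjusted p = 0.0318), and the call was lost without aged 1, 2 or 3 or young 1 or 3 (edgeR adjusted p up to 0.26). It was 0.73 ± 0.20 lower on the log2 scale in aged Ri than in aged libraries, which did not pass (edgeR adjusted p = 0.0937).

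Of the 8 peaks that fell with age, 6 were at protein-coding starts. Eloa (chr4:136021365-136022064) had 94.2, 117, 159 and 116 CPM in young, 38.5, 45.7, 64.3, 67.1 and 96.6 in aged and 35.9, 63.9, 64.2, 81.6 and 69.9 in aged Ri libraries. Aged 5 was the only library above a young value, and the peak fell by 0.89 ± 0.21 on the log2 scale (edgeR adjusted p = 0.00934; 0.0697 without young 1). Spsb1 had 99.9, 119, 124 and 150 CPM in young, 42.5, 53.3, 60.5, 59.5 and 116 in aged and 45.8, 88.5, 58.4, 94.2 and 89 in aged Ri libraries, where aged 5 again lay inside the young range. It fell by 0.87 ± 0.22 (edgeR adjusted p = 0.015), a call lost without aged 1, aged 3 or young 1. The start of Marf1, which covers Mir484, had 85.7, 96.9, 98 and 136 CPM in young, 30.5, 45.1, 61.7, 66.4 and 118 in aged and 40.6, 53.6, 63.6, 62.2 and 82.1 in aged Ri libraries, and fell by 0.68 ± 0.21 (edgeR adjusted p = 0.0419). Crocc (a ciliary rootlet protein), Ankrd28 and Spryd7 fell by 0.84, 0.74 and 0.73, and peaks within Il31ra and 32148 bp from Epm2a by 0.83 and 0.76 (edgeR adjusted p 0.0225 to 0.0494). Of the 6 RefSeq promoters at these 8 peaks, 6 held a GC box and 0 CCAAT, while of 13 at the peaks that fell between young and aged Ri cells, 10 held a GC box and 5 CCAAT.

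**Figure D3:**
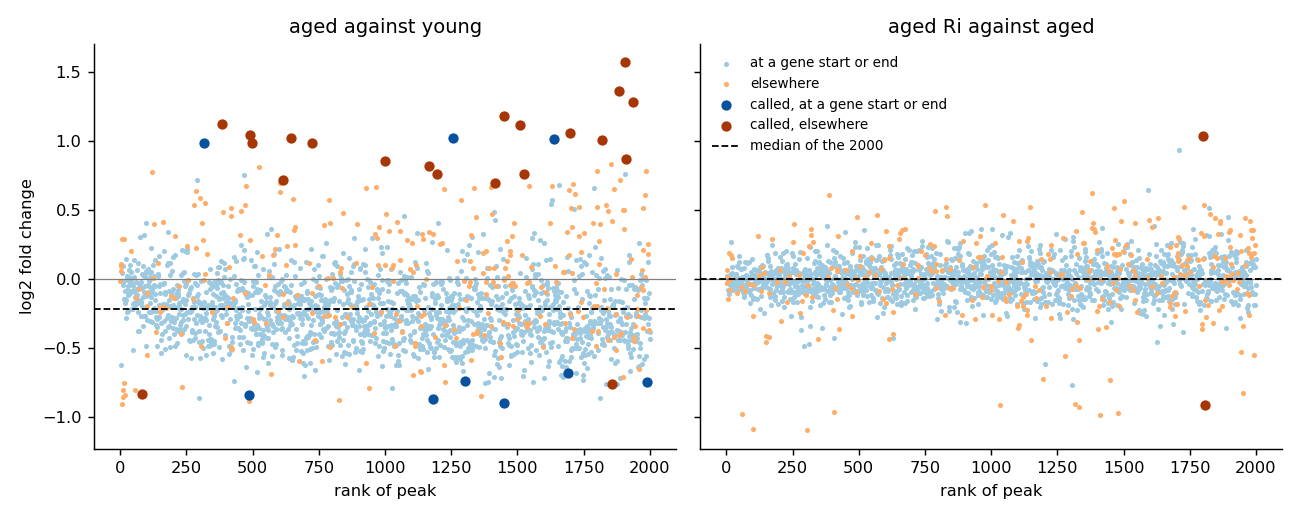
Log2 difference of each of the 2000 peaks against rank, aged against young and aged Ri against aged, with called peaks dark. The called peaks number 30 and 2, and the bulk of the aged against young differences lies below 0.

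The comparison of aged Ri with aged cells called 2 of the 2000 peaks (1 higher, 1 lower), against 0.446% of all peaks tested (0.375% higher and 0.0711% lower), with 42 at an unadjusted p under 0.05 and a median log2 difference of 0.01. The same-numbered aged and aged Ri libraries deviated together, so the block over pairs was also fitted, although some libraries of unlike number deviated together too. It called 17 (3 higher, 14 lower), against 4.42% of 51901 peaks tested (2.89% higher and 1.53% lower). Of the 14 lower ones, 8 were neighbouring peaks of 1 cluster on chromosome 9 that moved together, so the split rests largely on 1 place. The count without a block was 0 without aged Ri 3 or aged 2, 3 or 4, and 4 without aged Ri 5.

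The higher peak lay 6658 bp from Mylk2, a myosin light chain kinase of skeletal muscle (chr2:152903924-152904623). It had 27.1, 51.5, 27 and 27.6 CPM in young, 42.5, 46.9, 71.1, 63.6 and 55.7 in aged and 55.7, 156, 180, 123 and 75.6 in aged Ri libraries. Aged Ri 1 equalled aged 5, and the other aged Ri libraries lay above all aged ones. It rose 2.06-fold (log2 1.04 ± 0.23, edgeR adjusted p = 0.0324, and 0.000696 with the block, higher in 5 of 5 pairs). The call was lost without aged Ri 2 or 3 or aged 1, 2, 3 or 4. Ranking by the group means, the median or the young libraries alone left 0 higher and 1 lower call in this comparison. The Mylk2 peak was thus outside the set under those rankings. Since the ranking used favours peaks high in aged Ri cells, its call is not independent of the choice. The lower peak lay 22017 bp from Zfp36l2, which encodes an RNA-binding protein that promotes mRNA decay (chr17:84161208-84161907). It had 69.3, 93.5, 69.6 and 96.2 CPM in young, 68.2, 89.6, 93.2, 102 and 83.3 in aged and 34.4, 56.2, 48.7, 44.2 and 50.1 in aged Ri libraries. Every aged Ri library lay below every other library. It fell by 0.91 ± 0.19 (edgeR adjusted p = 0.0252; 0.000889 with the block, lower in 5 of 5 pairs), and the call was lost without aged Ri 3 or 4 or aged 2, 3 or 4.

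Among peaks that the block alone called, the start of Iqgap2, a scaffold that binds actin regulators, had 70.6, 113, 124 and 136 CPM in young, 50.5, 78.5, 88, 90.3 and 145 in aged and 27.6, 76.6, 32.6, 61.9 and 63.1 in aged Ri libraries. It was lower in 5 of 5 pairs (edgeR adjusted p = 0.00452 with the block, 0.155 without). The distal Kit peak was also lower in 5 of 5 pairs (edgeR adjusted p = 0.0163 with the block). The start of Klf2, a transcription factor of quiescence in blood cells, was chosen after its values were seen. It had 69.3, 66.7, 76.7 and 69.2 CPM in young, 48.1, 40.4, 36.8, 60.2 and 71.7 in aged and 41.6, 131, 113, 134 and 74.8 in aged Ri libraries, higher in 4 of 5 pairs (edgeR adjusted p = 0.0042 with the block, 0.0849 without). The remaining block calls, chosen in the same way, were 2 peaks 163596 and 164943 bp from Tcte2 and 1 within Mdga2, which were lower, 1 at the long non-coding RNA Gm2885, which was higher, and the 8 peaks of the chromosome 9 cluster described next. At the start of Rhoa, the gene of Rhosin's target, whose peak also covers the start of Tcta, the values were 120, 107, 185 and 104 CPM in young, 82.6, 54.5, 97, 120 and 123 in aged and 52.1, 114, 92.3, 125 and 67.9 in aged Ri libraries. They overlapped, and neither difference passed (aged against young −0.38, edgeR adjusted p = 0.35, and aged Ri against aged −0.08, edgeR adjusted p = 0.965).

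**Figure D4:**
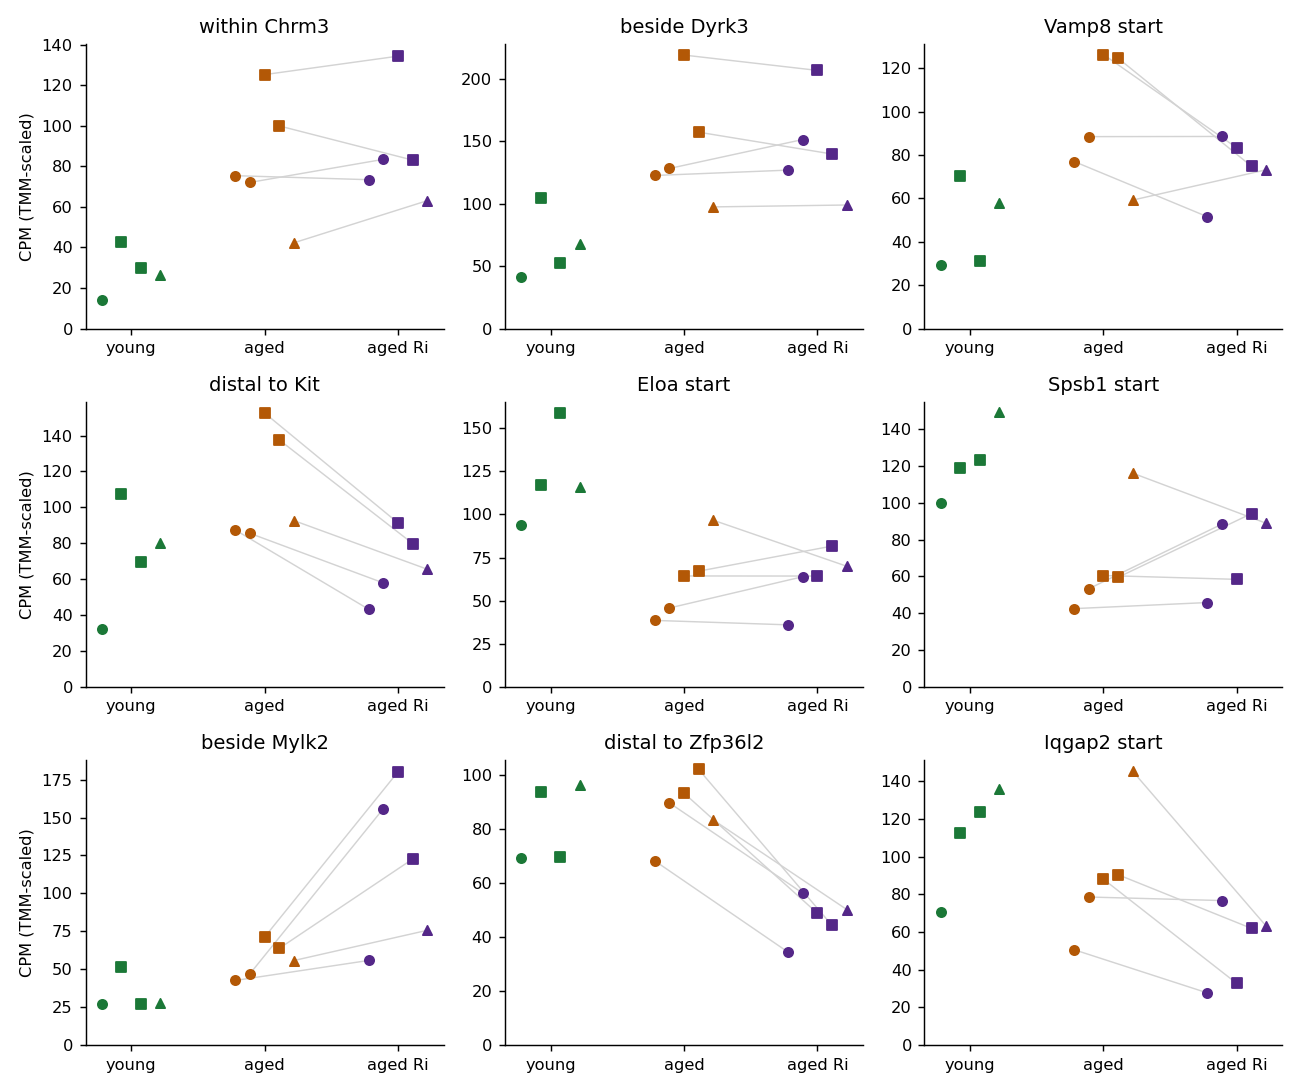
CPM in each library for 9 of the peaks named in the text, by group, with marker shape for the batch and lines joining same-numbered aged and aged Ri libraries. The Zfp36l2 peak is the 1 where every aged Ri library lies below every aged and young library.

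Some of the 2000 peaks sat side by side. The genes named for most of them were Alkbh8 (9 peaks, 76033 to 332542 bp away), Gm40363 (6), and Sfi1 and Gse1 (4 each). On chromosome 6, 2 clusters of 8 peaks each (chr6:47654801-47686186 and chr6:47739654-47772613) repeated with median spacings of 4324 and 4436 bp between starts, and 8 peaks on chromosome 9 lay at chr9:3001990-3032069, near the low-coordinate end of the assembled chromosome. The first chromosome 6 cluster begins over the small RNA gene Rn4.5s. How reads that match several places were counted is not given, which limits the values of all 3 clusters. The chromosome 9 peaks summed to 323.3, 871.4, 1975 and 701.8 CPM in young, 818.9, 1613, 639.5, 617.3 and 1062 in aged and 508.7, 962, 213.4, 563.5 and 334.4 in aged Ri libraries. Young 3 was highest and aged Ri 3 lowest, and the groups overlapped widely, yet the sum was lower in aged Ri in 5 of 5 pairs. With the block all 8 fell (edgeR adjusted p 0.000647 to 0.00797), and without it 0 of 8 passed (0.597 to 0.719). The sums of the chromosome 6 clusters ranged from 433.1 to 1899 CPM and from 440.3 to 2201 in aged libraries, with aged 5 highest in both, and were lower in aged Ri in 4 of 5 pairs; 0 of 16 passed in that comparison.

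**Figure D5:**
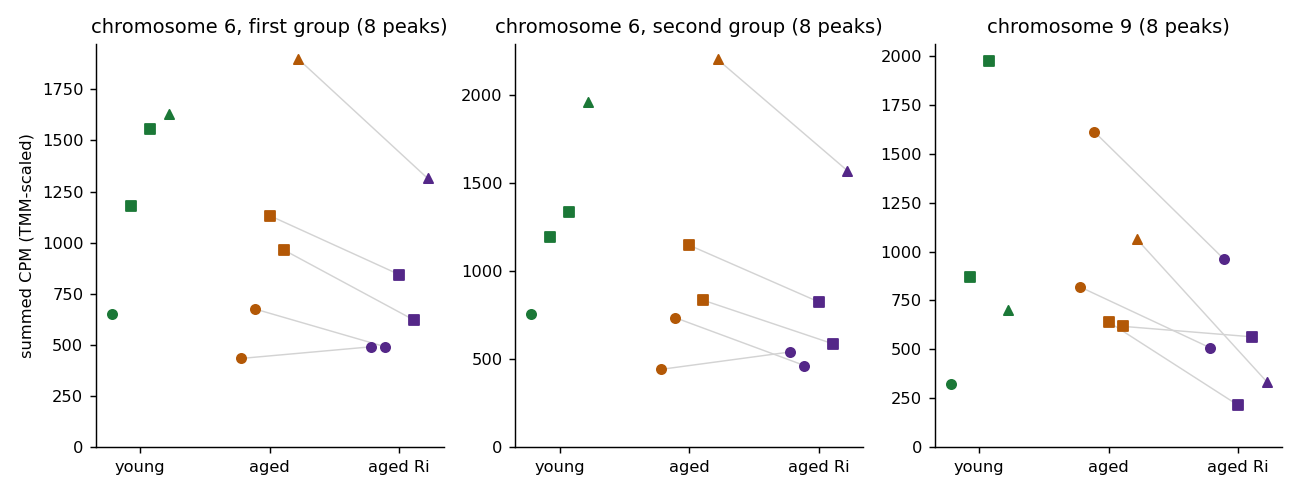
Summed CPM of the 3 clusters of 8 peaks in each library, by group, with lines joining same-numbered aged and aged Ri libraries. The libraries of a group spread over several-fold, and the chromosome 9 sum is lower in aged Ri in every pair.

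Between aged Ri and young cells, which share the young libraries with the comparison of aged and young cells, 85 of the 2000 were called (53 higher, 32 lower), against 11.5% of all peaks tested (7.9% higher and 3.56% lower). The median log2 difference was −0.22. Ranked by the young libraries alone, which favours peaks high in young cells, 67 were called, 6 higher and 61 lower. Ranking by the mean of the 3 group means gave 41 higher and 33 lower, and by the median over 14 libraries 54 higher and 22 lower. This split too depended on the ranking. Of the peaks at gene starts or ends 24 of 1666 were called (1.44%; 6 higher, 18 lower), against 7.33% of all such peaks tested, and of the others 61 of 334 (18.3%; 47 higher, 14 lower), against 13.2%. The Mylk2 peak rose by 1.82 ± 0.26, or 3.54-fold, and Chrm3 by 1.68 (edgeR adjusted p 2.51e-05 and 3.1e-05). Iqgap2 fell by 1.00 ± 0.25 (edgeR adjusted p = 0.00957; 0.0504 without aged Ri 3), and Eloa by 0.86 (edgeR adjusted p = 0.00699). Alk rose by 1.31 (edgeR adjusted p = 0.000435), and a peak 268443 bp from Klf6, a zinc finger transcription factor gene, rose by 0.98 (edgeR adjusted p = 0.0131). The start of Smarcd2, a subunit of the SWI/SNF remodelling complex, fell by 0.67, a peak 52745 bp from Frmd4a by 0.95 and 1 within Gnb1l by 0.89 (edgeR adjusted p 0.0381, 0.0185 and 0.0466). The start of Arhgdib had 40, 63.9, 48.3 and 47.4 CPM in young, 54.5, 67.4, 115, 91 and 62.3 in aged and 56.2, 90.2, 130, 75.2 and 59 in aged Ri libraries. Chosen after its values were seen, it rose by 0.73 in aged Ri against young cells (edgeR adjusted p = 0.0285), and its difference aged against young, with overlapping groups, was 0.66 (edgeR adjusted p = 0.0719). Bcl7c with Mir762, chosen after its values were seen, fell by 0.77 (edgeR adjusted p = 0.0164), and its difference aged against young was −0.59 (edgeR adjusted p = 0.0929). In the chromosome 6 clusters 4 of 8 peaks fell in each, with medians of −0.61 and −0.64. Whichever library was left out, 16 of the 53 higher peaks and 1 of the 32 lower ones (Eloa) stayed called. The call count ranged from 25 (without young 3) to 484 (without aged Ri 2; 40 higher, 444 lower). It was 27 without aged Ri 3, 49 without young 2 and 140 without young 4 (73 higher, 67 lower). Lower calls also outnumbered higher ones without young 1 (19 higher, 22 lower; 41 in all), aged 5 (51 and 77; 128 in all) and aged Ri 4 (61 and 96; 157 in all).

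Of 13150 protein-coding genes with a peak at their start or end, 1900 (14.4%) had 1 of the 2000 there, and gene groups differed widely around that figure. The lists were chosen with earlier results known. Shares were 14 of 25 for heat shock proteins and chaperones (Hsp90b1, the endoplasmic reticulum chaperone, rank 239), 12 of 26 for replication-dependent histones (H2ac6, rank 164), 14 of 32 for AP-1 and other immediate early genes (Klf10, rank 341), 15 of 37 for RhoA, ROCK and actin genes (Limk1, a kinase that acts on cofilin, rank 171), and 15 of 39 for splicing and RNA-binding proteins (Hnrnpc, rank 71). They were 8 of 27 for translation factors, 13 of 49 for cytosolic ribosomal proteins (Rps19, rank 166), 8 of 32 for the respiratory chain (Atp5g1, a subunit of ATP synthase, rank 54), 6 of 27 for autophagy and lysosome, 7 of 33 for cell cycle (Cdkn2d, a cyclin-dependent kinase inhibitor, rank 55), 6 of 30 for the nuclear envelope and heterochromatin (Kdm4a, a histone demethylase, rank 116), 6 of 31 for chromatin remodelling, 5 of 30 for the proteasome and 6 of 40 for hematopoietic transcription factors. Close to the share of all genes were HSC ageing (4 of 29), NF-kB (3 of 24) and interferon (3 of 25). Below it were megakaryocyte and platelet (1 of 17, Nfe2) and HSC surface and niche genes (1 of 26, Ctnnal1). None was found for B lymphoid (0 of 8), T and NK (0 of 7), myeloid (0 of 8), erythroid (0 of 8), endothelial and stromal (0 of 10) and non-hematopoietic genes (0 of 1).

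The lists moved little as groups. For aged against young, the median log2 difference of their peaks among the 2000 was −0.40 for splicing, −0.34 for RhoA and actin, −0.32 for chromatin remodelling and −0.27 for ribosomal proteins, against −0.22 over all 2000. It was above 0 for histones (0.09, 12 peaks), hematopoietic transcription factors (0.11, 11 peaks), HSC ageing (0.08, 7 peaks), HSC surface and niche genes (0.04, 4 peaks) and megakaryocyte genes (0.13, 2 peaks). In the splicing, RhoA, remodelling, ribosomal and histone lists 0 peaks were called between aged and young. These lists hold 10 to 16 peaks each, most of them at gene starts or ends, where 0.54% of the 1666 were called. A count of 0 is close to that share and says little about a list. Counts of calls in single lists were small. The AP-1 list, with 25 peaks, had 1 higher with age (all peaks tested: 4.45% higher), 1 lower in aged Ri against aged (the Zfp36l2 peak; all peaks tested: 0.0711% lower) and, against young, 3 higher and 1 lower in aged Ri (all peaks tested: 7.9% and 3.56%). The 11 peaks of hematopoietic transcription factors had 2 higher in both comparisons with young cells (Bcl11a and Runx1, both away from gene starts; all peaks tested: 4.45% and 7.9% higher). The start of Nfe2, a megakaryocyte transcription factor, had 104, 170, 118 and 158 CPM in young, 149, 120, 165, 148 and 170 in aged and 100, 214, 173, 159 and 127 in aged Ri libraries, with overlap and no call aged against young (log2 0.16, edgeR adjusted p = 0.705). Junb, an AP-1 subunit, held 2 peaks with differences of 0.19 and −0.35 between aged and young cells, neither called.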

How the data were processed

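The deposited table held raw counts per peak for 14 ATAC-seq libraries, and every peak spans 700 bp. The submitters' processing notes name SAMtools 1.14, R 4.2.0 and featureCounts; the aligner and peak caller are not given in the sources used here. Members and gene lists were chosen with earlier results of these data known. Differences were fitted with edgeR 4.0.16 (R 4.3.3) on the counts: low-count filter by group, TMM scaling, robust quasi-likelihood test, batch and group as terms, Benjamini-Hochberg over all 56235 peaks tested, and a threshold of 0.05. All 2000 peaks passed the filter. DESeq2 1.42.0 and other scalings, rankings and left-out libraries were alternatives. Starts and sequences came from RefSeq GRCm38.p6; 17492 of 21900 protein-coding genes (79.9%) had a strand, and each peak was named by the gene it lies at or in, or else by the nearest, with distances over 50 kb stated. The 25 gene lists and the marker sets were described by counts and medians alone. Same-numbered aged and aged Ri libraries deviated together in 5 of 5 pairs (r 0.137 to 0.645 over 25903 peaks), and no same-numbered pair with a young library passed 0.1. Some pairs of unlike number did, such as young 2 with aged 3 (r 0.395) and young 4 with aged 5 (0.233). Aged 2 deviated more with aged Ri 1 (0.343) than with aged Ri 2 (0.137), so the pairing is not settled by these values. Named peaks were the 12 of highest rank, those at the edge of rank 2000, called peaks of 1 sign in all 3 batches by largest and smallest difference, the leading peaks of each list and of crowded genes, and Rhoa, Kit and Junb; exceptions are marked in the text. The fit was tested on simulated data for aged against young. Among peaks of the 2000 given a known change, it called 2.326% at 1.5-fold (n = 43) and 3.922% at 0.67-fold (n = 51). At 2-fold (n = 51) and 0.5-fold (n = 55) it called 74.51% and 54.55%, so a peak that was not called may still differ. The simulated libraries had independent noise, with no batch effect and no shared deviation between libraries, and most peaks were left unchanged. Rates in the real data may therefore differ from these.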

Additional observations from a re-analysis of the deposited data

Results flagged for a closer look

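In groups of 4 or 5 libraries, 1 library stood far from the rest of its group in 4 of 84 groups of values examined, and chance alone gives about 1 in 20. At the 3′ end of Lars2, aged Ri 2 had 963 CPM, with a gap of 0.716 of the range of the aged Ri libraries. At the Chrm3 peak, aged Ri 3 had 134 CPM (gap 0.714). At Spsb1, aged 5 had 116 CPM against 42.5 to 60.5 in the other aged libraries (gap 0.756). At the Mylk2 peak, young 2 had 51.5 CPM against 27 to 27.6 in the other young libraries (gap 0.976).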

How the results depend on the processing

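Counts of called peaks depended on the settings, and no sign reversed among the named peaks that were called in a comparison. For aged against young (30), DESeq2 gave 59 (29 higher, 30 lower), library totals 85 (49 higher, 36 lower), TMM over the 2000 alone 137, trended offsets 138, the 2 groups alone 148, no batch term 9 and the gene start or end share as a covariate 2 (median 0.184). Ranking by young libraries gave 18 (1 higher, 17 lower), the top 1000 gave 10 and the top 4000 gave 128. For aged Ri against aged (2), these were 4, 4, 6, 7, 10, 0, 7, 1, 0 and 10, and ranking by the group means or the median gave 1. For aged Ri against young (85), they were 145 (55 higher, 90 lower), 171 (77 higher, 94 lower), 211, 230, 45, 33 and 21 (median 0.187), with 67 for ranking by young libraries (6 higher, 61 lower), 88 for DESeq2-type size factors in edgeR (46 higher, 42 lower) and 31 and 292 for the top 1000 and 4000. Without 1 library the counts ran from 2 to 133, 0 to 4 and 25 to 484. The share of counts was 14.5%, 13.3% and 13.2% for the top 1000 and 35.0%, 31.7% and 31.7% for the top 4000 (young, aged, aged Ri), and windows of 500 and 2000 bp put 1629 and 1721 at gene starts or ends. With the replicate block, there were 475 calls for aged against young (69 higher, 406 lower; median −0.458), 17 between aged Ri and aged, and 521 between aged Ri and young (81 higher, 440 lower; median −0.476). Young numbers share only a number with the others, so the block there is not a pairing. The 475 and 521 were 23.75% and 26.05% of the 2000, against 19.18% and 23.16% of all peaks tested. Trended offsets called 6.9% of the 2000 against 6.188% of all for aged against young. For aged Ri against young they called 11.5% against 12.37%, and TMM over the 2000 alone called 10.55% against 11.15%. Of the called peaks, 1 of 22 higher and 0 of 8 lower with age were called under every setting. The median log2 standard error at these peaks was 0.216, with a median count of 175 and a biological coefficient of variation of 0.207.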
